A study of Mus musculus with 4 samples.

Results

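In genes with many CAGE clusters in this mouse skin, most clusters besides the strongest were weak. Together these other clusters held 0.256 to 82.0% of a gene's tags. The minor clusters of these genes are described here. They were chosen from the measured table itself. Every named gene with 15 or more listed clusters was taken, and all of its clusters except the one with the largest mean CPM (tag counts scaled to the library total) over the 4 libraries were kept as minor clusters. Of 17849 named genes, 235 met this rule. They gave 4392 minor clusters, out of 49065 clusters listed under a gene name and 69391 listings in all. Because a cluster can be listed under several genes, the 4392 listings held 4088 distinct clusters. Since level and cluster number chose them, the low level of the minor clusters and the dominance of the top ones are properties of the choice and are given as a description.

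Lesional skin of the face was taken from FADS mice of the C57BL/6 strain at postnatal day 28 and gave 4 CAGE libraries. All were of the genotype Nectin-cre(+);Ikk2FL/FL;Postn-/-, in which a Cre driver is combined with floxed Ikk2, the kinase that activates NF-κB, and with loss of periostin, a matrix protein of the dermis. No control, wild type or Postn+/+ group is part of the data, so no result below compares genotypes. The sample codes do not say whether the skins came from separate animals, so the spread between libraries may be partly technical. Each library held between 17630119 and 18823630 tags over all listings. The epidermal marker list (7 of 7 genes listed) summed to between 6312 and 9743 CPM, and the labelled tissue was thus present in each library. A salivary gland list (3 of 3 genes) summed to 19493 CPM in library 2, against 1.42 to 6.30 CPM in the other libraries. A skeletal muscle list (5 of 5 genes) summed to 1818, 1365, 2113 and 3309 CPM in libraries 1 to 4, and a hair follicle list (4 of 4 genes) to 6742, 6176, 3235 and 4938 CPM. In bulk skin, fewer cells of a type and less RNA per cell cannot be told apart.

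CAGE captures RNA by its cap and sequences a short tag from the 5' end, so that piles of tags mark transcription starts. Genes often use several promoters, and the start chosen can change the first exon, the untranslated leader or the protein. Tags are also found inside the exons of abundant mRNAs, a pattern known as exon painting, and keratin mRNAs are among the most abundant of skin.

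Of the minor clusters that carry the results below, 3 kinds are shown here by sequence. The kinds overlap, and other clusters described below, such as those of CT010467.1 and an intronic one of Crybg1, belong to none of them. The first kind lies in the coding part of the first exon of keratin genes, 244 to 284.5 bp past the main start, in the stretch that encodes the glycine-rich head of the protein. These are shown because of their runs of guanine, which in Krt1 and Krt14 lie inside the cluster and not at its first base. Capitals mark the first 60 bases of the cluster, or all of it where it is shorter, and each line reads 5' to 3' on the gene's strand.
Krt1 (chr15:101850475-101850604, minus): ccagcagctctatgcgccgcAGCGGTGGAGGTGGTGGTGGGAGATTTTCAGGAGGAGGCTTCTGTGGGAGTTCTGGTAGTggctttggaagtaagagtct
Krt10 (chr11:99389047-99389169, minus): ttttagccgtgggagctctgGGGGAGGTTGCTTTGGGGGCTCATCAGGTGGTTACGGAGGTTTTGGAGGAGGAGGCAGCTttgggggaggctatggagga
Krt14 (chr11:100207158-100207331, minus): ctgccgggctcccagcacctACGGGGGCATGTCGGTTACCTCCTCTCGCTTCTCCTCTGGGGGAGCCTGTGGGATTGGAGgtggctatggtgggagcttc
Krt15 (chr11:100135614-100135698, minus): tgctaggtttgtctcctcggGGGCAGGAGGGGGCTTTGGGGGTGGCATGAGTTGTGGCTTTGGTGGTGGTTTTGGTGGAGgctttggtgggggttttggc
Krt17 (chr11:100260716-100260744, minus): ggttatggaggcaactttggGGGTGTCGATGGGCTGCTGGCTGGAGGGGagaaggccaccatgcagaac

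Malat1, a long noncoding RNA of the nucleus, had guanine runs at the edge of 2 of its strongest minor clusters. Its strongest one (chr19:5801892-5802029) and another (chr19:5802362-5802427) had none there. The 2 with a run are shown with the whole cluster in capitals.
Malat1 (chr19:5797744-5797757, minus): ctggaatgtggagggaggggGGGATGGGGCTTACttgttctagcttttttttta
Malat1 (chr19:5797410-5797418, minus): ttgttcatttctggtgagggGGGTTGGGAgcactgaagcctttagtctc

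The second kind lies at the first base of an internal exon, at a splice acceptor. In each one shown, the cluster begins upstream of that base, so its first capitals lie before the exon. Here the capitals again mark the whole cluster, with 10 bases on each side, as read from a transcript that is not spliced there. Such a cluster can also lie close to an annotated start, the midpoint being 5.5 bp from one in Apoe and 27.5 bp from one in Aldoa.
Apoe (chr7:19698250-19698255, minus): ttccctccgcAGACTGgccaatcaca
Aldoa (chr7:126797776-126797781, minus): gcctccctcaCCCAGGaaagcactgc
Ppp4r1 (chr17:65783620-65783625, plus): ctcccccggcGCAGACctctccctgc

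The third kind is a separate promoter with an annotated start of its own. Dmkn, which encodes the secreted epidermal protein dermokine, shows it in the RefSeq promoter table of GRCm38. Capitals mark the first 25 bases of the minor cluster, which spans chr7:30776360-30776419.
Dmkn (chr7:30776310-30776384, plus): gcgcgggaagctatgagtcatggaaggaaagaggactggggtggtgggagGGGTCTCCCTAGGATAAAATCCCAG

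The minor clusters were small and weak. Their median width was 4 bp, against 140 bp for the top clusters of the same genes. Their median level was 0.278 CPM, against 88.9 CPM for the top clusters. A tag was present in every library in 3309 of them (75.3%), 1246 (28.4%) held under 10 tags in all libraries together, and 62 held none, for which a count of 0 allows up to 3 tags. A mean of 1 CPM or more was reached by 1122 of 4392 (25.5%). In genes with 2 to 14 clusters the minor clusters looked alike, with a median width of 5 bp and a median level of 0.248 CPM. No test was made of that difference.

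Distance from the top cluster was measured between midpoints along the gene's strand. The median distance was 461.5 bp in either direction, and 2299 minor clusters (52.3%) lay within 500 bp of the top one. A minority lay far away, with 652 (14.8%) beyond 10000 bp and 203 (4.62%) beyond 100000 bp. Although the set was put together as internal starts, 1480 (33.7%) lay upstream of the top cluster, and 1001 (22.8%) outside the annotated bounds of the gene. Minor clusters of genes with 2 to 14 clusters had a median distance of 295.5 bp, with 65.3% within 500 bp and 38.5% upstream. All minor clusters shared the strand of their top cluster, and 36 (0.820%) were on the strand opposite to the annotated gene. These 36 were the minor clusters of CT010467.1, so its top cluster lay on the opposite strand as well.

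**Figure D1:**
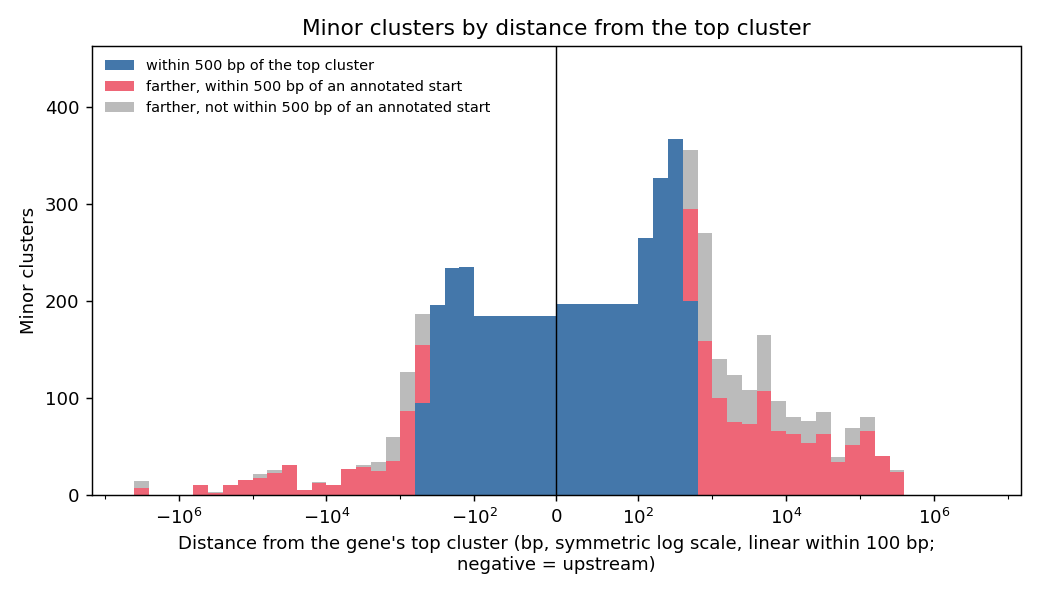
Number of minor clusters (y axis) by signed distance from the top cluster of the same gene (x axis, bp, symmetric log scale), coloured by position. Of the 4392 clusters, 2299 lay within 500 bp of the top cluster, 1480 were farther but within 500 bp of an annotated start, and 613 were near neither.

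The tags of the minor clusters were distributed differently from their number. The 1480 clusters near another annotated start were 33.7% of the clusters and held 54.2% of the minor CPM, while the 2299 within 500 bp of the top cluster held 36.2%. The remaining 613 clusters, near neither, held 9.65%. An annotated start of the same gene lay within 500 bp of 3570 minor clusters (81.3%), against 217 of 235 top clusters (92.3%). Within 1000 bp the share of minor clusters was 98.7%, and it was 99.6% for minor clusters of genes with 2 to 14 clusters. Within 100 bp the shares were 36.2% of the minor clusters, 76.2% of the top clusters of the same genes and 46.3% of the minor clusters of genes with 2 to 14 clusters. These shares were not tested against each other.

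By annotated part, 1217 minor clusters were in a 5' UTR, 965 in a coding exon, 811 in an intron, 374 in an exon of a noncoding transcript and 24 in a 3' UTR. Coding exons held 22.0% of the minor clusters, against 4.68% of the top clusters of the same genes and 16.01% of the minor clusters of genes with 2 to 14 clusters. Of the 965 in coding exons, 928 were downstream of the top cluster. They were weak, with a median of 0.248 CPM, and in libraries 1 to 4 held 1.17, 1.11, 1.38 and 1.21% of the genes' CPM.

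Of all CPM of the 235 genes, the minor clusters held 11.8, 11.7, 11.3 and 11.7% in libraries 1 to 4 (11.6 ± 0.227%, SD, n = 4). In genes with 2 to 14 clusters the share was 7.46 ± 0.350% (SD, n = 4). A few very abundant transcripts made up a large part of the CPM of the 235 genes. Malat1 alone made up 12.1% of the genes' CPM. The main start of Neat1, another nuclear noncoding RNA, made up 19.1%, because it was listed under 4 of the genes (Neat1, Gm28006, Gm27505 and Gm27533). The share was 13.1% without Malat1 and 13.0% with each cluster counted once, both looked at after seeing the data. Taken gene by gene, the median share of the minor clusters was 28.5%, with a range of 0.256 to 82.0%. It was over 50% in 56 genes and under 5% in 36. At the threshold of the rule, the 42 genes with exactly 15 clusters had a median share of 22.4%, and the 72 genes with exactly 14 clusters one of 34.3%.

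**Figure D2:**
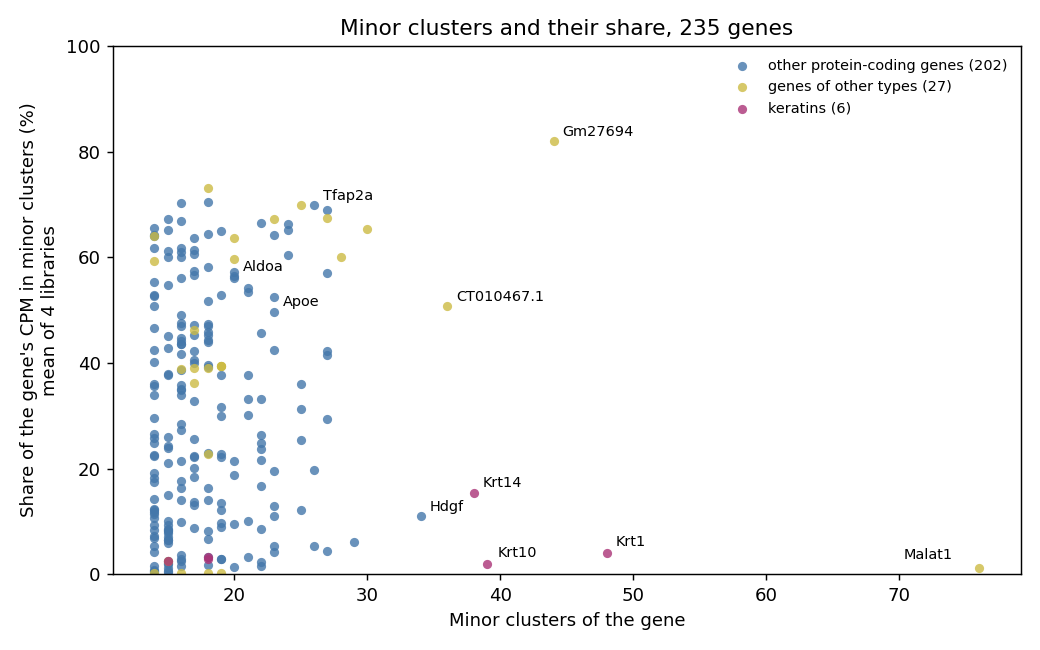
Share of a gene's CPM held by its minor clusters (y axis, %, mean of 4 libraries) against the number of its minor clusters (x axis), 1 point per gene. Malat1, with 76 minor clusters, and the keratins Krt1 and Krt10 lie at the bottom, and Gm27694 lies at the top with 82.0%.

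Cluster number and expression level were compared across genes. Across the 17849 named genes, cluster number had a Spearman rho of 0.494 with the gene's CPM and of 0.321 with its number of annotated starts. Within the 235 genes with 15 or more clusters, the rho with the gene's CPM was 0.181. Genes are not independent replicates, and both numbers come from the same libraries. Malat1 had 77 clusters, the most of any gene, followed by Krt1 with 49, Gm27694 with 45, Krt10 with 40 and Krt14 with 39. CT010467.1, annotated as a ribosomal RNA gene on the strand opposite to these clusters, had 37. Hdgf, which encodes a heparin-binding growth factor, had 35, and the muscle spring protein gene Ttn 30. The 10 genes with the most minor clusters held 402 of the 4392 (9.15%). The rule sets a minimum number for every gene, so this low share is in part a property of the choice.

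The rule sets no such minimum for the CPM of the minor clusters. The 10 genes with the largest summed minor CPM held 31.6% of it and the 10 strongest minor clusters alone held 24.5%. These 10 genes were Apoe, Aldoa, Dmkn, CT010467.1, Ube2d3, Hnrnpul2, S100a16, Set, Malat1 and Pkp3. Their minor clusters summed to between 137 CPM in Pkp3 and 1203 CPM in Apoe.

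The strongest minor cluster belonged to Apoe, which encodes the lipid carrier apolipoprotein E. It measured 1135, 1152, 1139.6 and 1111 CPM in libraries 1 to 4, and the top cluster 1217, 1238, 1221 and 1191 CPM. It was 6 bp wide, lay 798 bp downstream of the top cluster, and covered the first base of an internal exon. Both clusters were at nearly the same level, and the minor one was below the top one in every library. Minor clusters made up 49.7 ± 0.132% of the CPM of Apoe (SD, n = 4), the steadiest share among the genes described here with a share above 5%.

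Aldoa, which encodes the glycolytic aldolase abundant in muscle, had its 2 strongest minor clusters in the order of the muscle list over the libraries. An upstream minor cluster, 882.5 bp before the top one and at an annotated start (chr7:126800039-126800051), measured 296, 237, 309 and 407 CPM. The cluster on the internal exon shown above measured 254, 202, 269 and 353 CPM, and the top cluster 494, 484, 539 and 446 CPM. These 2 minor clusters were lowest in library 2 and highest in library 4, in the same order as the summed skeletal muscle list (1818, 1365, 2113 and 3309 CPM), while the top cluster was lowest in library 4. The next strongest minor cluster (chr7:126800358-126800441) measured 59.5, 51.9, 44.4 and 42.9 CPM and was also lowest in library 4. The minor share of Aldoa was 55.8, 50.9, 54.2 and 64.7% (56.4 ± 5.91%, SD, n = 4). The part of muscle content in this was not tested.

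The downstream start of Dmkn measured 307, 315, 386 and 346 CPM, against 2199, 2026, 3123 and 2512 CPM at the top cluster 12580.5 bp upstream. Library 3 was the highest for both. The minor share of this gene was 12.9 ± 0.975% (SD, n = 4). Pkp3, which encodes the desmosomal protein plakophilin 3, had an upstream start 1589.5 bp before its top cluster that measured 127, 115, 122 and 116 CPM and made up 31.2% of the gene's CPM.

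Other strong minor clusters lay in the untranslated leaders of their genes. Ube2d3, a ubiquitin-conjugating enzyme gene with 16 annotated starts, had one of 119, 112, 121 and 112 CPM 464 bp upstream of its top cluster, and its minor share was 66.2 ± 0.676% (SD, n = 4). Hnrnpul2, which encodes a nuclear RNA-binding protein, had one of 146, 135, 154 and 143 CPM 262.5 bp downstream. Fosl2, which encodes an AP-1 transcription factor subunit, had one of 104, 108, 114 and 111 CPM 593 bp downstream. Set, which encodes a histone-binding phosphatase inhibitor, had one of 103, 94.1, 77.7 and 88.6 CPM 201.5 bp downstream, lowest in library 3. Each of these clusters lay in an annotated 5' UTR. The midpoint was 20.5 bp before the nearest annotated start in Ube2d3 and 15.5 bp before it in Hnrnpul2. In Fosl2 it was 309 bp past that start and in Set 242.5 bp past it.

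**Figure D3:**
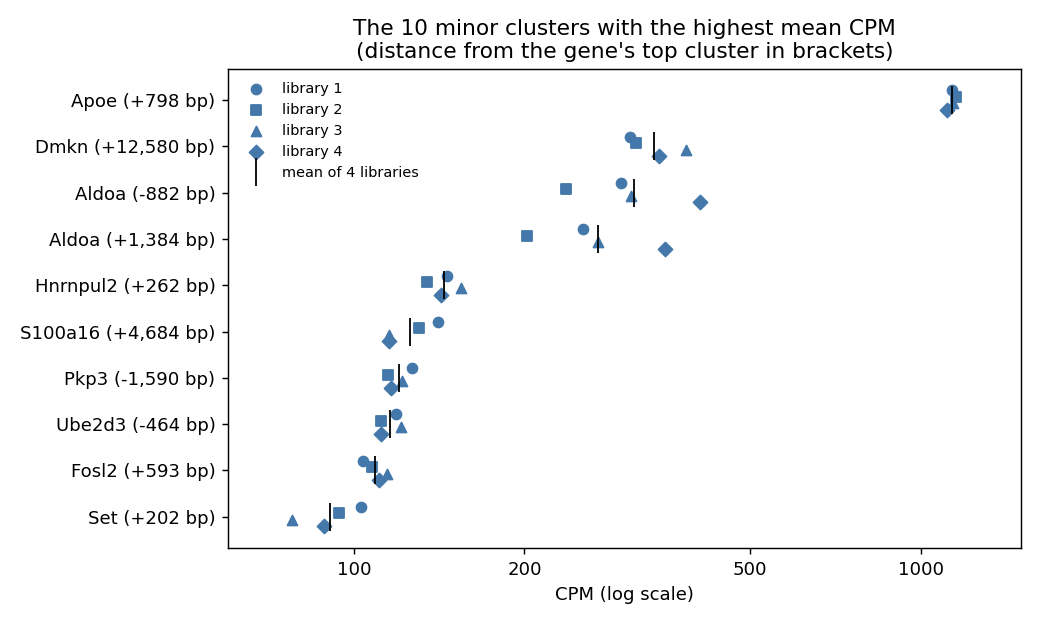
CPM (x axis, log scale) of the 10 minor clusters with the highest mean, 1 symbol per library and a bar at the mean of 4 libraries, with the distance from the top cluster in brackets. The Apoe cluster lies above 1000 CPM in every library, and both Aldoa clusters are highest in library 4.

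Internal exon starts were few among the minor clusters and held a larger part of their tags. The midpoint of 142 minor clusters (3.23%) in 91 genes was within 5 bp of the first base of an internal exon, against 1.14% within 5 bp of an exon's last base. In minor clusters of genes with 2 to 14 clusters these shares were 6.32% and 1.27%. Of the 142, 107 also lay within 500 bp of an annotated start, against 3570 of all 4392 minor clusters (81.3%). The median width of the 142 was 4 bp, the same as for all minor clusters, and 123 were at most 10 bp wide. Together the 142 held 15.5% of the minor CPM, of which 87.7% came from the 3 strongest, in Apoe, Aldoa and S100a16. S100a16, which encodes a calcium-binding protein, had its cluster at chr3:90541989-90541997, 4684.5 bp downstream of the top one, with 141, 130.4, 115 and 116 CPM. Of the 9 minor clusters of 100 CPM or more, these were 3.

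Among the gene lists, keratins held the largest number of minor clusters in coding exons, with small shares of their genes. Of the 14 epidermal keratin genes in the list, all were in the table and 6 had 15 or more clusters. They had 176 minor clusters, 111 of these in coding exons, and a median share of 3.07%. Other lists had similar parts in coding exons, with 86 of 125 for translation and 47 of 76 for RNA-binding genes, at median shares of 3.26 and 4.16%. The cytoskeletal and linker list had fewer, 32 of 130. Krt1 and Krt10, the pair of suprabasal epidermis, had 35 of 48 and 30 of 39 in coding exons. Krt14 of the basal layer had 12 of 38 there and 20 in introns. The share of the minor clusters was 3.97 ± 0.263% in Krt1, 1.85 ± 0.247% in Krt10 and 15.4 ± 1.76% in Krt14 (SD, n = 4). No gene of the hair keratin and sheath list had 15 clusters, of 15 in the table with a median of 5 clusters, nor did any of the 9 gland and salivary genes in the table, with a median of 1.

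The cluster in the head-coding stretch was the strongest minor one of Krt1, Krt10 and Krt14. In Krt1, 244 bp past the top cluster, it measured 43.1, 29.5, 60.7 and 40.9 CPM, against 2321, 1864, 3172 and 2787 CPM at the top cluster. In Krt10, 248.5 bp past it, it measured 23.4, 18.4, 44.4 and 32.5 CPM, against 2941, 2565, 3863 and 4277 CPM. In Krt14, 254 bp past it, it measured 46.4, 40.7, 89.8 and 45.3 CPM, against 613, 504, 814 and 552 CPM. Library 3 had the highest value of each of these 3 minor clusters and library 2 the lowest. In Krt17, a keratin of follicles and stressed epidermis, the cluster measured 17.9, 15.4, 35.0 and 18.5 CPM, and in Krt15 of the basal layer 4.68, 4.99, 11.97 and 9.59 CPM, again highest in library 3. The minor share of all 6 keratin genes was highest in library 3, as in 13.9, 14.98, 17.9 and 14.9% for Krt14 across the libraries. The epidermal marker list was also highest in library 3 and lowest in library 2 (7427, 6312, 9743 and 9322 CPM). That list holds Krt1, Krt10 and Krt14 themselves, so its order is no separate observation. The part of epidermal content in the minor share was not tested.

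**Figure D4:**
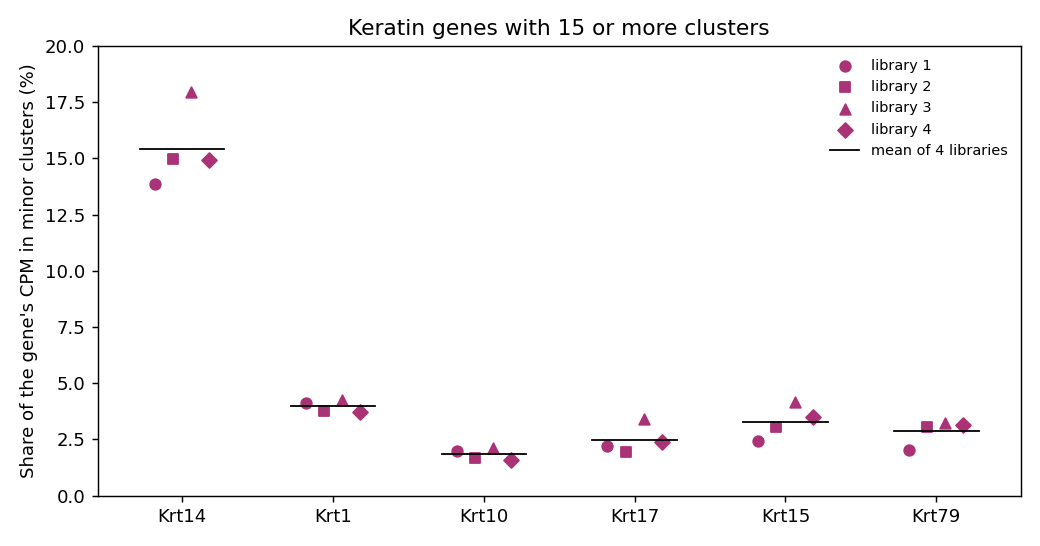
Share of each keratin gene's CPM held by its minor clusters (y axis, %), 1 symbol per library and a line at the mean of 4 libraries. Krt14 has the highest share, 15.4%, and library 3 is the highest library in each of the 6 genes.

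A minority of the narrow clusters inside exons had a guanine run at their first base. Among 507 minor clusters of 5 bp or narrower in coding exons, 145 (28.6%) had the letters GGG within the 7 bases centred on their first base. Of all 7-base windows of the 137 transcripts they lie in, 6.50% held GGG on the same strand. The complement CCC, which is GGG read on the other strand, was in 5.52% of the cluster windows and 7.80% of all windows. Guanine was the base at the first position in 51.7% of these clusters and at the next in 58.8%, against 30.8% at the position 5 bases before.

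Narrow minor clusters in 5' UTRs differed in their first base. Of 714 such clusters of 5 bp or narrower, GGG was within the window in 20.6%, against 6.89% of all windows of their transcripts, and CCC in 13.9%, against 7.99%. All windows span the whole transcripts and not the 5' UTRs alone. At the position 5 bases before these clusters, guanine was present in 37.5% and cytosine in 33.2%. Base content was not matched in any of the sets, so its part in these shares was not tested. At the first position guanine was present in 22.7% and cytosine in 46.9%, and at the next position guanine in 59.2%. In 213 minor clusters of 5 bp or narrower in exons of noncoding transcripts, GGG was present in 15.96%, against 6.96% of all windows. Many of these clusters share a transcript, so the windows are not independent and no test was made. The match is a description of the sequence under the clusters.

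**Figure D5:**
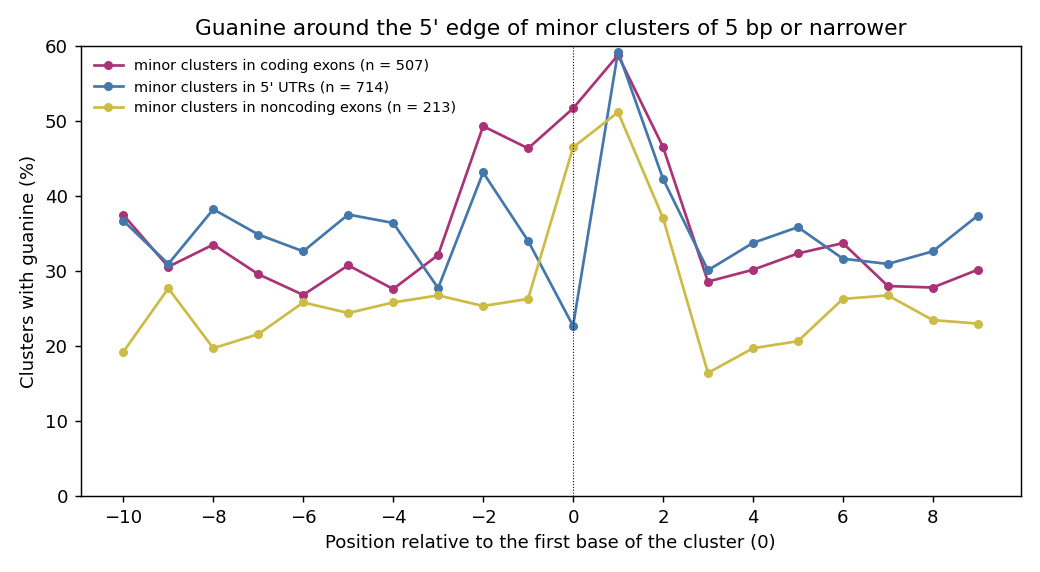
Percent of minor clusters of 5 bp or narrower with guanine (y axis) at each position around their first base (x axis, bases), by the annotated part they lie in. Guanine reaches 51.7% at the first base in coding exons and 22.7% in 5' UTRs, and lies above 50% at the next base in all 3 sets.

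Malat1 had the most minor clusters and one of the smallest shares. All 76 lay downstream of its top cluster, at a median of 4898.5 bp, and 8 within 500 bp. They summed to 155, 139.6, 149 and 149 CPM in libraries 1 to 4, against 11947, 11279, 11624 and 11478 CPM at the top cluster, a share of 1.26 ± 0.0276% (SD, n = 4). Its strongest one measured 38.3, 36.9, 36.4 and 33.6 CPM. The 2 shown above with guanine runs measured 20.8, 16.3, 16.3 and 19.1 CPM and 10.4, 8.29, 9.36 and 10.5 CPM.

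The 5 smallest shares were those of Gm27505, Neat1, Gm27533, Gm28006 and Col1a1, which encodes a chain of type I collagen. They ranged from 0.256% in Gm27505 to 0.331% in Col1a1. The Gm names are short noncoding genes at the Neat1 locus that list the main start of Neat1 as their own, so 4 of the 5 rest on 1 cluster of 4628 CPM. Col3a1, for type III collagen, was next in kind, with 0.342 ± 0.0101% (SD, n = 4) and all 15 minor clusters in coding exons. Its top cluster was listed under 2 genes, and without shared clusters the share was 77.1%.

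Among the 10 largest shares, Gm27694 was first with 82.0 ± 0.719% (SD, n = 4). It is a short noncoding gene inside Malat1, its top cluster measured 10.7 CPM on average, and 10 of its 44 minor clusters were listed under another gene too. Gm10925, Gm13340 and Gm28438, with 73.0, 69.8 and 67.3%, are unprocessed pseudogenes, and Gm11410, with 67.4%, is a processed pseudogene. Of the 31-base words in their transcripts, those also found in mitochondrial transcripts were 100% in Gm10925, 99.0% in Gm28438, 45.2% in Gm13340 and 6.56% in Gm11410. The chromosome 1 pseudogenes Gm10222 and Gm28439, which had 30 and 28 minor clusters, shared 100%. A tag from such a sequence cannot be placed by its letters alone, so the levels of these pseudogene entries are uncertain. Without clusters listed under another gene the share of Gm13340 was 28.6%, and Gm10925 and Gm28438 had no cluster left.

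The other 5 large shares were in protein-coding genes with low top clusters. Slc16a6, a gene of the monocarboxylate transporter family, had 70.4 ± 3.93%, and Tns3, which encodes the focal adhesion protein tensin 3, 70.2 ± 1.89% (SD, n = 4 each). Tfap2a, which encodes a transcription factor of epidermis and face, had 69.8 ± 5.06%, Smarcd2, for a subunit of a chromatin remodelling complex, 69.0 ± 0.504%, and the myosin gene Myo18a 67.3 ± 3.08% (SD, n = 4 each). In these the top cluster measured between 12.2 CPM in Tns3 and 59.4 CPM in Tfap2a. Across the 235 genes, the strongest minor cluster reached more than 80% of the top cluster in 21.

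Listings shared between genes were found among the minor and the top clusters of the set. Of the 4392 minor listings, 548 (12.5%) were also listed under another gene, in 44 of the 235 genes, and in 18 genes every minor cluster was shared. The share was 11.5% for the top clusters of the same genes and 6.97% for minor clusters of genes with 2 to 14 clusters. The T cell receptor joining segments Trbj2-3, Trbj2-4 and Trbj2-5 listed an identical set of 20 clusters. The top cluster of some other gene was among the minor ones in 19 cases. The 5 farthest minor clusters were shared listings. Listed under the growth factor receptor gene Fgfr2 at 2858 kb upstream of its top cluster, they were also listed under Ctbp2, which encodes a transcriptional corepressor, and the strongest of them measured 1.43, 0.850, 0.851 and 1.45 CPM.

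The gene lists were made with earlier results of these data known and together held 42 of the 235 many-cluster genes. Of all 17849 named genes, 1.32% had 15 or more clusters. Among 24 cornified envelope and desmosome genes, 7 had 15 or more clusters, with 139 minor clusters, and the 3 with the most minor CPM were Dmkn, Pkp3 and Pkp1. Among 19 cytoskeletal and linker genes listed, 7 did, led by Plec, Sptbn1 and Actb. The minor share was 36.0 ± 0.504% in Plec, which encodes the linker plectin and has 16 annotated starts, 65.0 ± 2.96% in Sptbn1, for a spectrin chain, and 2.06 ± 0.0854% in the actin gene Actb (SD, n = 4 each).

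Among 22 muscle genes in the table, 5 met the rule. The tropomyosin genes Tpm1 and Tpm2 had shares of 9.55 ± 1.34% and 6.74 ± 0.666%, and Eno3, for muscle enolase, 23.98 ± 1.18% (SD, n = 4 each). Ttn had 28 of its 29 minor clusters in coding exons at a median of 140899 bp from its top cluster, with a share of 6.14 ± 0.832% (SD, n = 4).

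Among 12 translation genes, 6 met the rule, led by Eif4g1 with a share of 19.7 ± 0.7999%, Hsp90ab1 with 4.24 ± 0.467% and Eef1a1 with 8.46 ± 1.30% (SD, n = 4 each). Without clusters listed under another gene the share of Eef1a1 was 4.77%. They encode an initiation scaffold, a chaperone and the elongation factor that brings tRNA to the ribosome. Of 16 RNA-binding genes 4 did, led by Ddx5 with 24.2 ± 0.908%, Hnrnpu with 5.35 ± 0.768% and Hnrnpa2b1 with 2.98 ± 0.118% (SD, n = 4 each). Of 24 matrix genes 3 did, led by the hemidesmosomal collagen gene Col17a1 with 8.70 ± 0.636% (SD, n = 4). Of 12 immune genes only H2-K1, which encodes a class I antigen-presenting molecule, did, with 0.743 ± 0.0716% (SD, n = 4). Of 8 nuclear noncoding RNA genes in the table, Malat1, Neat1 and Xist, which coats the silenced X chromosome, met it, Xist with 2.55 ± 0.204% (SD, n = 4).

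With 1 group, the remaining question was whether any minor cluster varied between the 4 libraries more than clusters of its level. A spread test in limma, on log2(CPM + 1) for distinct clusters of 1 CPM or more, called 150 of 21876 clusters (0.686%) at an adjusted p under 0.05. None of the 1041 minor clusters tested was called. At an unadjusted p under 0.05, 38 of them (3.65%) passed, against 1497 of all clusters (6.84%). On recovered tags edgeR called 0 minor clusters as well, with 0.635% of all clusters called and 39 minor clusters at an unadjusted p under 0.05.

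The smallest adjusted p among them was 0.0667 in limma, for a cluster of CT010467.1 (chr17:39846620-39846672) with 35.8, 29.0, 63.1 and 99.7 CPM. That cluster is opposite to the annotated strand of the gene it is listed under. Next was an intronic cluster of Crybg1, which encodes an actin-binding protein, at chr10:44058853-44058921, with 19.8, 18.5, 4.77 and 5.96 CPM and an adjusted p of 0.0701 in limma. It was high in libraries 1 and 2, which were also the highest in the hair follicle list (6742, 6176, 3235 and 4938 CPM). Libraries 1 and 2 also share the stem of their sample code and libraries 3 and 4 share another, with no meaning given in the labels. The code and the follicle content cannot be told apart here. A cluster of the unnamed gene Gm10800, with 27.3, 16.3, 54.8 and 45.4 CPM, had an adjusted p of 0.101 in limma.

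The other 7 of the 10 smallest adjusted p-values lay between 0.2001 and 0.379 in limma. They were in S100a16, Acsl5, Krt14, Eno3, Krt10, Epb41l1 and Krt17, and those of the 3 keratins were the head-coding clusters described above. The unadjusted p in limma of the 5 head-coding clusters was 0.00395 in Krt14, 0.00618 in Krt10, 0.00934 in Krt17, 0.015 in Krt1 and 0.016 in Krt15, and none passed after adjustment over all clusters.

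The ratio of summed minor CPM to top CPM was tested in the same way for each gene. Of 5060 genes with both sides at 1 CPM or more, limma called 5 (0.0988%), and 0 of the 235 genes. At an unadjusted p under 0.05, 11 of the 235 (4.68%) passed, against 251 of all genes (4.96%). The smallest adjusted p was 0.562 in limma, for Aldoa, whose log2 ratio was 0.33, 0.05, 0.24 and 0.88 in libraries 1 to 4. CT010467.1 was next, with log2 ratios of -0.24, -0.28, 0.46 and 0.23.

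The highest ratio was found in library 3 for 86 of the 235 genes (36.6%), against 1481 of all 5060 genes (29.3%). It was in library 2 for 35 (14.9%), against 1106 of all genes (21.9%). Libraries 1 and 4 had the highest ratio in 57 genes each. Genes of 1 library are not independent of each other, and no test was made of these counts.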

How the data were processed

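The authors deposited 1 table of CAGE tag clusters with CPM values (counts of tags scaled to a fixed library total) for 4 libraries, its positions fitting GRCm38. The submitters' processing notes name BWA, HISAT2 and the build mm9; versions and settings are not given in the sources used here. Starts are counted from 0 in the table and are printed here counted from 1. The CPM values, multiplied by the library total, were whole tags within 0.02 in 100% of entries, which gave 17630119 to 18823630 tags per library over all listings.

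The rule (minimum 15 clusters) was applied with Python 3.11.15 and pandas 2.3.3. Positions were read against GENCODE M21, and sequences come from its transcripts and from RefSeq promoters. Spread over libraries was tested with limma 3.58.1 (TMM scaling, robust trended prior, 1-sided, Benjamini-Hochberg adjustment), with pseudocounts of 1 for clusters and 0.5 for ratios and a minimum mean of 1 CPM. Alternatives used edgeR 4.0.16 and DESeq2 1.42.0 size factors. The tests were checked on simulated tags. The genes, lists and minor clusters were chosen with earlier results of these data known. Named were the 10 genes with the most minor clusters, the 10 with the most minor CPM, the 10 largest and 5 smallest shares, the 10 strongest and 5 farthest clusters, the lowest adjusted p-values, and up to 3 genes per list. Other genes (Fosl2, Crybg1, Ppp4r1, Gm10800, Col3a1, H2-K1 among them) came with these or were chosen after their values were seen.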

Additional observations from a re-analysis of the deposited data

Results flagged for a closer look

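In 2 of 69 sets of 4 libraries looked at (2.90%), 1 library stood apart from the other 3 by more than Dixon's critical gap for 4 values, and chance gives about 1 in 20. Both were library 3. The minor share of the pseudogene Gm10222 was 66.5, 66.2, 63.0 and 66.0% in libraries 1 to 4, lowest in library 3. The minor share of Hsp90ab1 was 4.09, 3.94, 4.93 and 3.98%, highest in library 3.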

How the results depend on the processing

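No paired analysis was possible because there is 1 group. With 10 or 20 as the smallest number of clusters, 752 or 82 genes met the rule, with 9844 or 1988 minor clusters and a share of 13.2 or 13.7%. With only clusters of at least 10 tags, 86 genes and 1571 minor clusters remained under the rule. The share was 13.6% without clusters listed under another gene, 28.5% as the median over genes, and 21.8% with the top cluster placed near an annotated start, which changed the top cluster of 17 genes and made the main start of Neat1 a minor cluster of Gm27505 and Gm27533. Chosen after seeing the data, counting each cluster once gave 13.0% and leaving out Malat1 13.1%. Leaving out 1 library gave shares of 11.6 to 11.7%. Weighted by tags, the median distance was 798 bp, which is that of the Apoe cluster, and the share near an annotated start 86.7%; it was 36.2% within 100 bp and 98.7% within 1000 bp. Minor clusters called as varying numbered 2 of 1525 with a filter of 0.5 CPM (207 of all 25996), 16 of 4030 with no filter (686 of all 46548), 1 of 1041 without TMM scaling (156 of all 21876), and 0 to 1 when 1 library was left out (1 without library 3). The cause was not tested. Genes with a called ratio numbered 0 under each alternative run. Shares of 34 named genes moved by less than 1 SD without shared clusters and those of 10 by more; for 5 no unshared cluster was left. The 4 libraries and the low tag number of most minor clusters limit the precision.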

Other observations

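The clusters on internal exons of Apoe and Aldoa kept a nearly fixed proportion to a cluster upstream. These pairs were chosen after their values were seen, and the spreads are a description with no test. In Apoe the ratio to the top cluster was 0.932, 0.930, 0.934 and 0.933 in libraries 1 to 4. The SD of its log2 value was 0.0021, against 0.014 for independent counting of the tags in both clusters. The top cluster lies 39 bp before the end of the exon that is spliced to that internal exon. In Aldoa the ratio of the internal cluster to the upstream minor cluster, 2266.5 bp away, was 0.858, 0.852, 0.873 and 0.867, with an SD of the log2 value of 0.016, against 0.029 for counting alone. Its ratio to the top cluster was 0.514, 0.417, 0.499 and 0.793, with an SD of 0.39, against 0.026.

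For 31 minor clusters on internal exon starts with at least 20 tags in every library, the observed SD was set against the counting SD for the strongest cluster in an exon spliced before them. The median of the observed SD over the counting SD was 0.963, and 17 of 31 (54.8%) lay below 1. For 744 other minor clusters, set against their top cluster, the median was 1.30 and 243 (32.7%) lay below 1. The ratio of the SDs was 0.153 in Apoe, 15.1 in Aldoa, where the other cluster was the top one, and 1.40 in S100a16. Of the 744, 1 lay at or below the Apoe value, at 0.139. The difference was not tested.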
